A study of Mus musculus with 14 samples.

Results

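The transcripts described here are those of 36 genes that cells use to copy their DNA and divide, the set commonly read as a proliferation signature. The genes were taken by name from a fixed list, which was chosen with earlier results of these data known. Each measured gene was represented by the mean of the probe sets annotated with its symbol alone. Of the 36 genes, 35 were measured, among 22180 genes in all. The gene Ccnb1 was listed and has no such probe set.

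Arrays hybridised with biotin-labelled cDNA gave the expression values of male mice, 12 weeks old, that had received a high-fat, high-cholesterol Western diet for 4 weeks. Every mouse lacked apolipoprotein E (ApoE), a lipoprotein ligand whose loss leads to atherosclerosis on such a diet. The mice compared were ApoE/LTbR double-deficient mice, which also lack the lymphotoxin beta receptor, a TNF-family receptor needed for lymphoid organ formation, and littermates deficient in ApoE alone. Whole aorta with its perivascular fat came from 4 double-deficient and 4 ApoE-deficient mice, and CD115+ blood cells, enriched with magnetic beads against the receptor of macrophage colony-stimulating factor, from 3 preparations of each genotype. The ApoE-deficient CD115+ replicates 3 and 4 were pools of 2 littermates. Both genotypes are whole-animal deficiencies, written apoE-/- and apoE-/-LTbR-/-, so no cell type is singled out.

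Each value is the signal of a gene on an array on the log2 scale, relative to the gene's median over the arrays of the same tissue, so that 0 is the middle array and levels of different genes or tissues cannot be compared. Differences below are double-deficient minus ApoE-deficient. The deleted gene, Ltbr, stood at -0.97 ± 0.34 (SD, n = 4) in aortas of double-deficient mice, where those of ApoE-deficient mice gave 0.68 ± 0.16 (SD, n = 4), with a difference of -1.64 (limma adjusted p = 0.0679). In CD115+ cells the Ltbr difference was -0.72 (limma adjusted p = 0.976), and in neither tissue did the Ltbr groups overlap. Over all 22180 genes, 1 passed an adjusted p of 0.05 in aorta and 0 in CD115+ cells, where 517 were lower and 457 higher at an unadjusted limma p under 0.05. The 1 gene was Ly6d, a surface protein of lymphocytes and epithelia, with a difference of -3.54 (limma adjusted p = 0.0495); it is no cell cycle gene, and it is named after its value was seen. Its limma adjusted p ran from 0.0106 to 0.425 over 17 alternatives, and it was called in 7 of them. A coarse bound from the stored rounding of the values placed the log2 signal at 8 or more in 14.7% of genes in aorta and 8.80% in CD115+ cells. A gene not placed there may still lie at 8 or more, since the bound was read only where at least 5 arrays could be used. By that bound 5 of 7 smooth muscle genes and 6 of 6 adipocyte genes were at 8 or more in aorta. Of 10 monocyte and macrophage genes, 5 were at 8 or more in the CD115+ preparations (Csf1r, Cd68, Ccr2, Nr4a1 and Lyz2). In aorta 5 of these 10 were as well, Csf1r, Cd68 and Lyz2 among them. The smooth muscle genes Myh11, Acta2, Tagln and Cnn1 (4 of 7) were also at 8 or more in the CD115+ preparations. So were the adipocyte genes Adipoq, Plin1, Lpl, Fabp4 and Cidec (5 of 6). Whether the bound reads the level of the named cells alone there was not tested.

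A dividing cell licenses its replication origins in G1 by loading the MCM2-7 helicase, fires them in S phase when cyclin-dependent kinases become active, and then segregates the copies in mitosis with the help of kinetochores, a microtubule spindle and a checkpoint that holds anaphase back. The genes for these steps are silent or low in resting cells and are switched on in waves. S phase genes are switched on largely through E2F factors. Mitotic genes follow later through the MuvB, B-Myb and FoxM1 complexes that act at CHR elements, near which CCAAT boxes often lie. In the vessel wall of ApoE-deficient mice on a Western diet, macrophages, smooth muscle cells, endothelium and lymphocytes can all enter the cycle, whereas circulating monocytes divide mainly before they leave the marrow.

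The start-site sequences of 4 members are shown because these were the mitotic pair (Birc5, Kif11) and the S phase pair (Rrm2, Mcm2) of smallest p in aorta and because the regulatory elements named above lie in such windows. Each runs 5′ to 3′ on the gene's own strand from 250 bases before to 50 bases after the RefSeq start in GRCm38.p6, with the searched motifs in capitals. Birc5 lies at chr11:117848987-117849286 on the plus strand, Kif11 at chr19:37376132-37376431 on the plus strand, Rrm2 at chr12:24708004-24708303 on the plus strand and Mcm2 at chr6:88898731-88899030 on the minus strand.
Birc5: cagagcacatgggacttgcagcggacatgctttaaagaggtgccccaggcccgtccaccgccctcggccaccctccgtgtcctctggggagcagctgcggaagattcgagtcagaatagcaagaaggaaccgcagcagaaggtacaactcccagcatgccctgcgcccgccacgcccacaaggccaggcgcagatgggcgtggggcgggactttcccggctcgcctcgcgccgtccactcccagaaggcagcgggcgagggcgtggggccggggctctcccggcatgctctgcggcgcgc
Kif11: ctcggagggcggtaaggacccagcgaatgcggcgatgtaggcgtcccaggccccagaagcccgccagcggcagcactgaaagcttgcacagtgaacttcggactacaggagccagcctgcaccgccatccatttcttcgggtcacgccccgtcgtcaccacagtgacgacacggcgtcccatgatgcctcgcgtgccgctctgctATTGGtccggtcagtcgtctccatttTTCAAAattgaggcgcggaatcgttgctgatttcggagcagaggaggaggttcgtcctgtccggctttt
Rrm2: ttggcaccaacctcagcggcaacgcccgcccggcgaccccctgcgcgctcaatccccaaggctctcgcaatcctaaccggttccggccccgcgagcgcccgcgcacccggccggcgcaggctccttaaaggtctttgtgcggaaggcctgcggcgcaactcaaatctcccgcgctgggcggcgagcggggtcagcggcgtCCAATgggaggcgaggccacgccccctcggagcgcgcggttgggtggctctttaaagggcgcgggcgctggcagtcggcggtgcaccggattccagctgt
Mcm2: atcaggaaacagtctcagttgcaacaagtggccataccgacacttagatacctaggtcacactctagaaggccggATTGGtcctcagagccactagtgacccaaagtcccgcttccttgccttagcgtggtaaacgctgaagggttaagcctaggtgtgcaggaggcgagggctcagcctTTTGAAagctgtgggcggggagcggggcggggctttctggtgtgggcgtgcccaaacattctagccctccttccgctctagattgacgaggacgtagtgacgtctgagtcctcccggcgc
Kif11 has a CHR match (TTCAAA, beginning 19 bases upstream of the start) close behind a reversed CCAAT box (ATTGG, 45 bases upstream). Rrm2 has a CCAAT box 50 bases upstream, Mcm2 has a CHR match (TTTGAA) 70 bases and a reversed CCAAT box 175 bases upstream, and the Birc5 window holds none of the searched letters. No capitals overlap in these 4 windows.

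The RefSeq table held 31 windows for 30 of the 36 listed genes, Ccnb1 included, and the motifs were counted in each, on both strands. A CHR element, searched as TTTGAA or TTCGAA, was present in 16 of the 31 windows (51.6%), compared with 19.2% of all 32851 windows of the table. It was present in 14 of 20 windows of mitotic members and in 2 of 11 windows of S phase members (70.0% and 18.2%). The CCAAT box occurred in 23 of 31 windows (74.2%, all windows 37.4%), at similar shares in mitotic and S phase members (75.0% and 72.7%). E2F sites, searched as TTTCCCGC, TTTGGCGC, TTTCGCGC or TTTGCCGC, which can overlap one another and were counted once a window, were in 4 of 11 S phase windows (36.4%), 1 of 20 mitotic windows (5%) and 2.27% of all windows. CHR and CCAAT occurred together in 13 of the 20 mitotic windows (65.0%, all windows 7.53%). Such a match is a description of letters, and factor binding was not measured.

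In aorta the proliferation genes stood lower in double-deficient than in ApoE-deficient mice, by a modest amount and without any single gene passing the test. The difference was below 0 for 33 of the 35 members (31 after quantile normalization between arrays, with Mcm5 and Ndc80 then above 0), where 47.2% of all genes were below and 52.8% above 0, and its median was -0.37, where the median over all genes was 0.01. Ccnb2, Birc5, Top2a and Rrm2 had the largest differences, from -0.99 to -0.65, and Kif23 and Ccne1 were the members above 0. No member reached an adjusted p of 0.05 (background 0.00451% of genes called lower and 0% higher), the lowest limma adjusted p being 0.524. At an unadjusted limma p under 0.05, 6 members were lower and 0 higher (background 3.81% lower and 3.91% higher). The groups did not overlap for 1 member, Birc5, lower in double-deficient mice (background 2.11% lower and 2.19% higher). In whole tissue, fewer dividing cells and less of these RNAs per cell cannot be told apart.

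**Figure D1:**
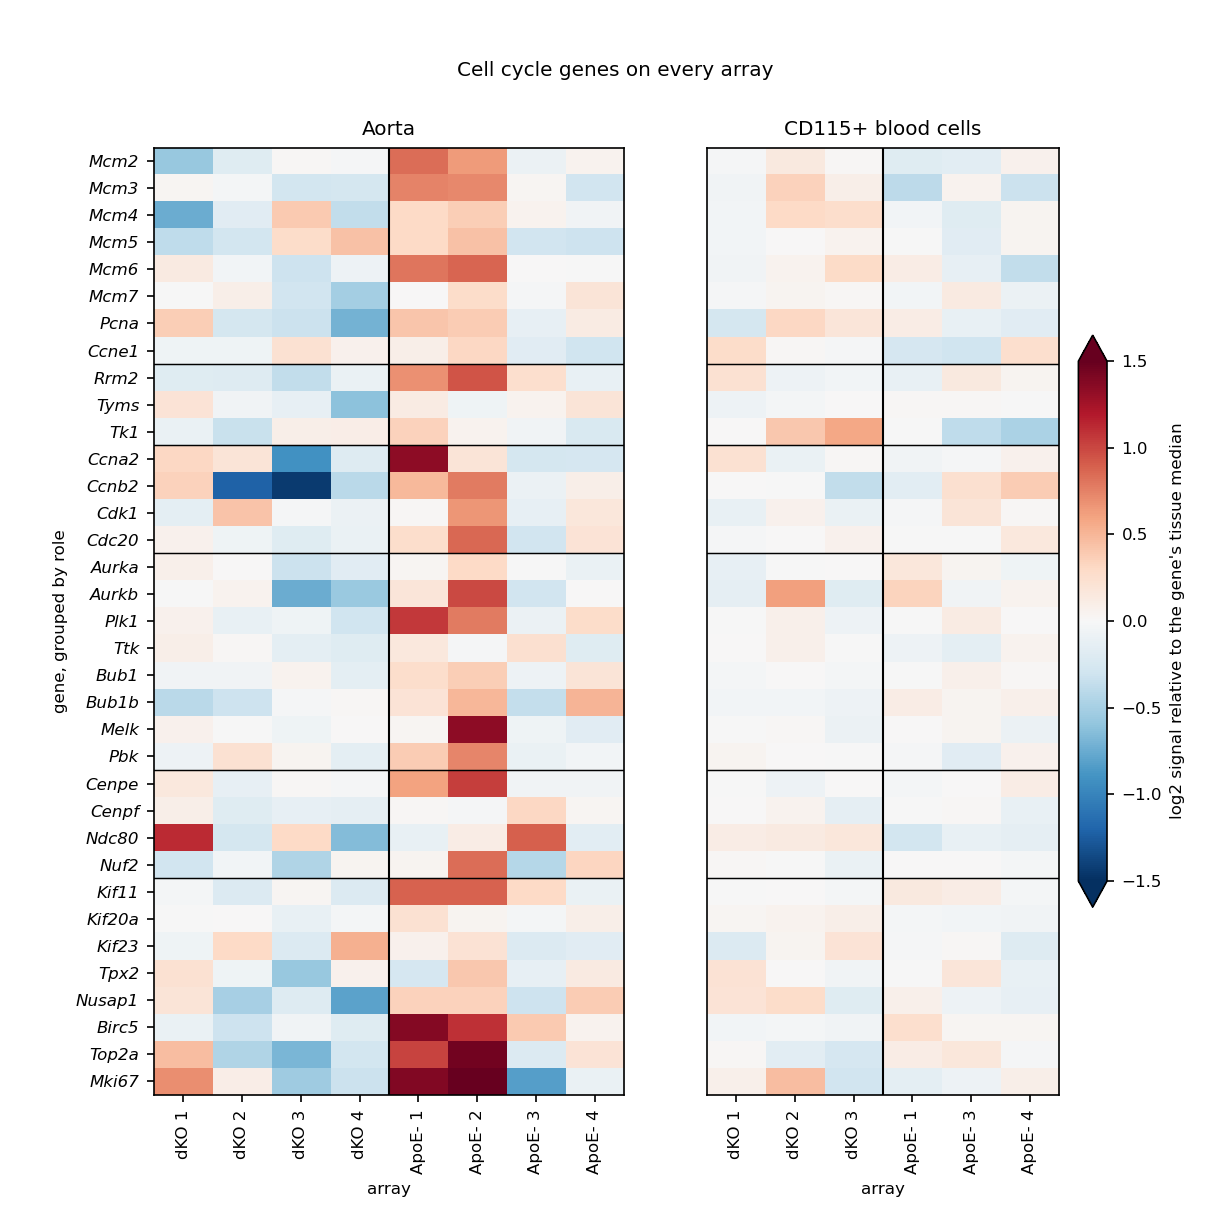
Log2 signal of the 35 measured members on every array, relative to each gene's median over the arrays of its tissue, with genes grouped by role (black lines) in the order licensing and S phase, nucleotide supply, cyclins with Cdk1 and Cdc20, mitotic kinases and checkpoint, kinetochore, and spindle with chromosome and midbody. Double-deficient arrays (dKO) are left of the vertical line and ApoE-deficient arrays (ApoE-) right of it. The columns of ApoE-deficient aortas 1 and 2 hold most of the dark red, with 11 and 17 members above 0.5, compared with 0 to 2 on each of the other arrays.

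Among the genes that license origins and copy DNA, 7 of 8 were below 0 in aorta (6 after quantile normalization), with a median difference of -0.41. Mcm2, a subunit of the replicative helicase, stood at -0.57, -0.19, 0.02 and -0.02 in double-deficient mice 1 to 4 and at 0.84, 0.64, -0.09 and 0.05 in ApoE-deficient mice 1 to 4. ApoE-deficient mice 1 and 2 were far above all others, mouse 4 was just above the double-deficient range and mouse 3 lay inside it; the difference was -0.55 (SE 0.23, limma adjusted p = 0.637). The other helicase subunits differed by -0.49 (Mcm6), -0.43 (Mcm3), -0.39 (Mcm4), -0.30 (Mcm7) and -0.02 (Mcm5). Pcna, the sliding clamp of the DNA polymerases, differed by -0.43 (SE 0.23) and was the 1 member that the bound placed at 8 or more in each tissue. The other members are not thereby shown to lie below 8. Ccne1, the cyclin that starts S phase, differed by 0.06 (SE 0.14).

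Of the enzymes that supply thymidine and other deoxynucleotides, all 3 were below 0. Rrm2, the regulated subunit of ribonucleotide reductase, stood at -0.18, -0.19, -0.37 and -0.09 in double-deficient mice and at 0.68, 0.94, 0.25 and -0.11 in ApoE-deficient ones. The 3 highest arrays were all ApoE-deficient and the fourth lay among the double-deficient ones, at a difference of -0.65 (SE 0.22, limma adjusted p = 0.540), or 1.57-fold lower if the base is 2. These Rrm2 values average 2 probe sets, and the probe set of larger SD alone gave a difference of -0.92. Thymidylate synthase (Tyms) differed by -0.22 (SE 0.17) and thymidine kinase (Tk1) by -0.09 (SE 0.15).

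The 4 measured genes of mitotic entry and exit were below 0, with a median of -0.37. Ccnb2, a mitotic cyclin, had the largest difference of all members, -0.99 (SE 0.40, limma adjusted p = 0.619). It stood at 0.34, -1.21, -1.43 and -0.40 in double-deficient mice and 0.48, 0.77, -0.09 and 0.09 in ApoE-deficient ones, so double-deficient aortas 2 and 3 lay far below all others while aorta 1 lay among the ApoE-deficient ones. Ccna2, the cyclin of S phase and G2, differed by -0.40 (SE 0.41), the anaphase activator Cdc20 by -0.33 (SE 0.22) and the cyclins' kinase partner Cdk1 by -0.14 (SE 0.19). Single arrays moved these values: Ccna2 was -0.04 without ApoE-deficient array 1, and without array 2 Cdc20 was -0.13 and Cdk1 0.02.

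All 8 mitotic kinases and checkpoint genes were below 0 in aorta (median -0.26). Plk1, a kinase of mitotic entry and spindle assembly, stood at 0.06, -0.11, -0.06 and -0.29 in double-deficient mice and 1.07, 0.78, -0.09 and 0.27 in ApoE-deficient ones. ApoE-deficient mice 1, 2 and 4 were above every double-deficient mouse and mouse 3 was not; the difference was -0.61 (SE 0.24, limma adjusted p = 0.608). Bub1, a checkpoint kinase, stood at -0.06, -0.05, 0.05 and -0.14 in double-deficient mice and 0.27, 0.36, -0.08 and 0.19 in ApoE-deficient ones. Its arrays took the same order of groups within a narrower range, with a difference of -0.23 (SE 0.10, limma adjusted p = 0.649). Aurkb, the kinase of the chromosomal passenger complex, differed by -0.54 (SE 0.30), or by -0.28 without ApoE-deficient array 2, and the checkpoint protein Bub1b by -0.39 (SE 0.21). Melk, Pbk, Aurka and Ttk lay between -0.29 and -0.10.

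The 4 kinetochore genes were below 0 (3 after quantile normalization) with a median of -0.27, and none had an unadjusted limma p under 0.05. Nuf2 and Ndc80 encode partners in a complex that binds microtubules at the kinetochore. Nuf2 differed by -0.38 (SE 0.26), or by -0.16 without ApoE-deficient array 2, and Ndc80 by -0.06 (SE 0.40), with a range of -0.39 to 0.20 when 1 array was left out. The Ndc80 arrays ran from -0.66 to 1.12 in double-deficient and from -0.16 to 0.89 in ApoE-deficient mice, the widest range of these 4 genes. The kinetochore motor Cenpe differed by -0.37 (SE 0.24), or by -0.15 without ApoE-deficient array 2, and Cenpf by -0.17 (SE 0.10).

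Spindle, chromosome and midbody genes had the lowest group median, -0.56, with 7 of 8 below 0. Birc5 encodes survivin, which targets the chromosomal passenger complex and also blocks apoptosis. It stood at -0.10, -0.31, -0.05 and -0.18 in double-deficient mice and at 1.38, 1.10, 0.40 and 0.05 in ApoE-deficient ones. Every ApoE-deficient mouse was above every double-deficient one, at a difference of -0.89 (SE 0.28, limma adjusted p = 0.524), or 1.86-fold lower if the base is 2.

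Kif11, the motor that pushes spindle poles apart, stood at -0.03, -0.21, 0.03 and -0.21 in double-deficient mice and 0.88, 0.89, 0.30 and -0.10 in ApoE-deficient ones. The groups overlapped through ApoE-deficient mouse 4, and the difference was -0.60 (SE 0.22, limma adjusted p = 0.586). Top2a, the topoisomerase that untangles chromosomes before anaphase, stood at 0.46, -0.45, -0.69 and -0.28 against 1.01, 1.45, -0.20 and 0.20, with a difference of -0.85 (SE 0.40, limma adjusted p = 0.660). Here double-deficient mouse 1 was the third highest of the 8 arrays. Mki67, whose product Ki-67 coats mitotic chromosomes and marks cycling cells, stood at 0.70, 0.10, -0.53 and -0.32 in double-deficient mice and 1.39, 1.91, -0.83 and -0.10 in ApoE-deficient ones. ApoE-deficient mice held both the highest and the lowest Mki67 value, and the difference of -0.60 had a standard error as large (0.61, limma adjusted p = 0.873). The spindle protein Nusap1 differed by -0.52 (SE 0.24), Tpx2 by -0.12 (SE 0.20), and the cytokinesis motors Kif20a by -0.12 (SE 0.07) and Kif23 by 0.17 (SE 0.18).

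**Figure D2:**
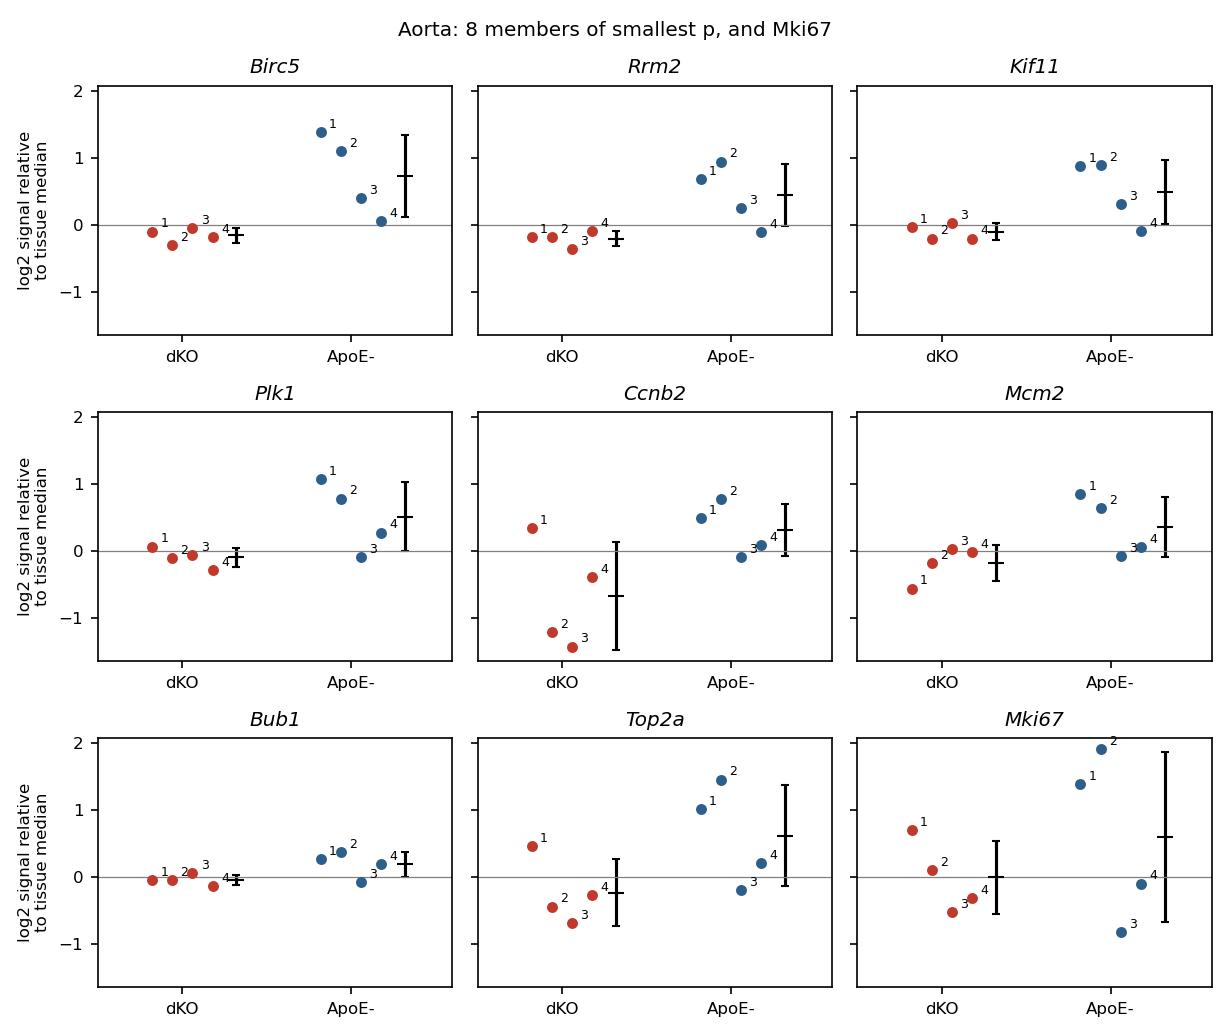
Log2 signal relative to the tissue median on each aorta array for the 8 members of smallest limma p and for Mki67. Points are mice, numbered by replicate, in double-deficient (dKO, red) and ApoE-deficient (ApoE-, blue) groups, with the mean and 1 SD (n = 4 each). Birc5 is the panel with no overlap, with its lowest ApoE-deficient value at 0.05 and its highest double-deficient value at -0.05.

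The lower values in double-deficient aortas rested largely on ApoE-deficient mice 1 and 2. The member median was 0.30 and 0.50 on those 2 arrays, -0.09 and 0.01 on ApoE-deficient arrays 3 and 4, and 0.03, -0.07, -0.13 and -0.14 on double-deficient arrays 1 to 4. Members above 0 numbered 33, 32, 10 and 18 on ApoE-deficient arrays 1 to 4 and 18, 10, 10 and 8 on double-deficient ones, while 45.4% to 53.1% of all genes were above 0 on an aorta array. ApoE-deficient array 2 was the highest of the 8 for 19 members and array 1 for 8, where these arrays were the highest for 11.9% and 13.6% of all genes. ApoE-deficient array 3, with 10 members above 0, matched double-deficient arrays 2 and 3 in that count.

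With ApoE-deficient arrays 1 and 2 both omitted, an alternative chosen after the values were seen, 25 of 35 members were below 0, the median difference was -0.11 and 1 member, Birc5, had an unadjusted limma p under 0.05. The Birc5 difference was then -0.38 and the Mki67 difference 0.46. Without array 1 alone the member median was -0.33, without array 2 alone it was -0.21, and without ApoE-deficient array 3 it was -0.52. In that last fit 13 members had an unadjusted limma p under 0.05. Of all genes, 74 then passed an adjusted p of 0.05, compared with 1 when all arrays were kept. The background shares given above are those of the fit with all arrays, and they do not apply to the counts in these alternatives. Leaving out 1 array at a time turned the sign of 7 of 35 members (Mcm5, Ccne1, Tk1, Cdk1, Melk, Ndc80 and Tpx2). It moved the differences of Melk and Pbk to 0.07 and -0.07 (without ApoE-deficient array 2), that of Tyms to -0.07 and that of Kif23 to 0.04 (without double-deficient array 4). It moved the Mki67 difference between -1.07 and -0.16 and the Birc5 difference between -1.12 and -0.68.

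The members also varied together among mice of 1 genotype. After each group's mean was removed, the mean Pearson correlation over the 595 pairs of members was 0.32 in aorta across 8 arrays, compared with 0.09 over pairs of the other cell cycle genes listed below and 0.0044 over pairs of all genes. It was 0.39 among mitotic kinases, 0.41 among spindle genes and 0.36 among licensing genes, but -0.04 among kinetochore genes and -0.06 among the 3 nucleotide genes. The marker lists described below lay on both sides of the members in aorta. B cell (0.80), plasma cell (0.64), T cell (0.55), monocyte and macrophage (0.53), natural killer (0.43), platelet (0.36) and smooth muscle genes (0.34) were above. Adipocyte (0.30), germinal centre B cell (0.26), thymocyte (0.14), endothelial (0.12), neutrophil (0.02) and erythroid genes (-0.05) were below. The median within-group SD of a member was 0.36 in aorta, where that of all genes was 0.19. These correlations share the same 8 arrays, and ApoE-deficient arrays 1 and 2 enter all of them.

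Markers of B cells and T cells stood high on the same 2 arrays. The median of 7 B cell markers was 2.44, 2.42, 0.03 and 0.95 on ApoE-deficient arrays 1 to 4 and ran from -0.49 to -0.17 in double-deficient mice, with 7 of 7 differences below 0 and a median of -1.72. The median of 8 T cell markers was 1.01, 0.99, 0.16 and 0.42 in ApoE-deficient mice and ran from -1.17 to -0.09 in double-deficient mice, with 8 of 8 below 0 (median -1.62). The 6 germinal centre B cell genes were highest on ApoE-deficient array 2 (0.84), and so were the 6 plasma cell genes (0.74), with 5 of 6 and 6 of 6 differences below 0. On ApoE-deficient array 1 the germinal centre genes stood at 0.10, near the 0.09 of double-deficient array 1. The plasma cell genes stood at 0.24 there and at 0.18 on ApoE-deficient array 4. Natural killer cell genes were below 0 for 6 of 6 (median -0.51).

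The remaining lists took no common order. Neutrophil genes were also highest on ApoE-deficient array 2 (0.28). The 10 monocyte and macrophage genes split 5 below and 5 above 0 and were highest on double-deficient array 1 (0.71). Of the 7 thymocyte and progenitor genes 4 were below 0 (median -0.03), of 10 neutrophil genes 7 (median -0.08), of 4 erythroid genes 1 (median 0.15) and of 4 platelet genes 4 (median -0.36). Smooth muscle genes were above 0 for 7 of 7 (6 after quantile normalization, median 0.31) and lowest on ApoE-deficient arrays 1 and 2 (-0.20 and -0.33). Endothelial genes were above 0 for 6 of 6 (median 0.15) and adipocyte genes for 4 of 6 (median 0.15). The part of these cell types in the values of the cell cycle genes was not tested.

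**Figure D3:**
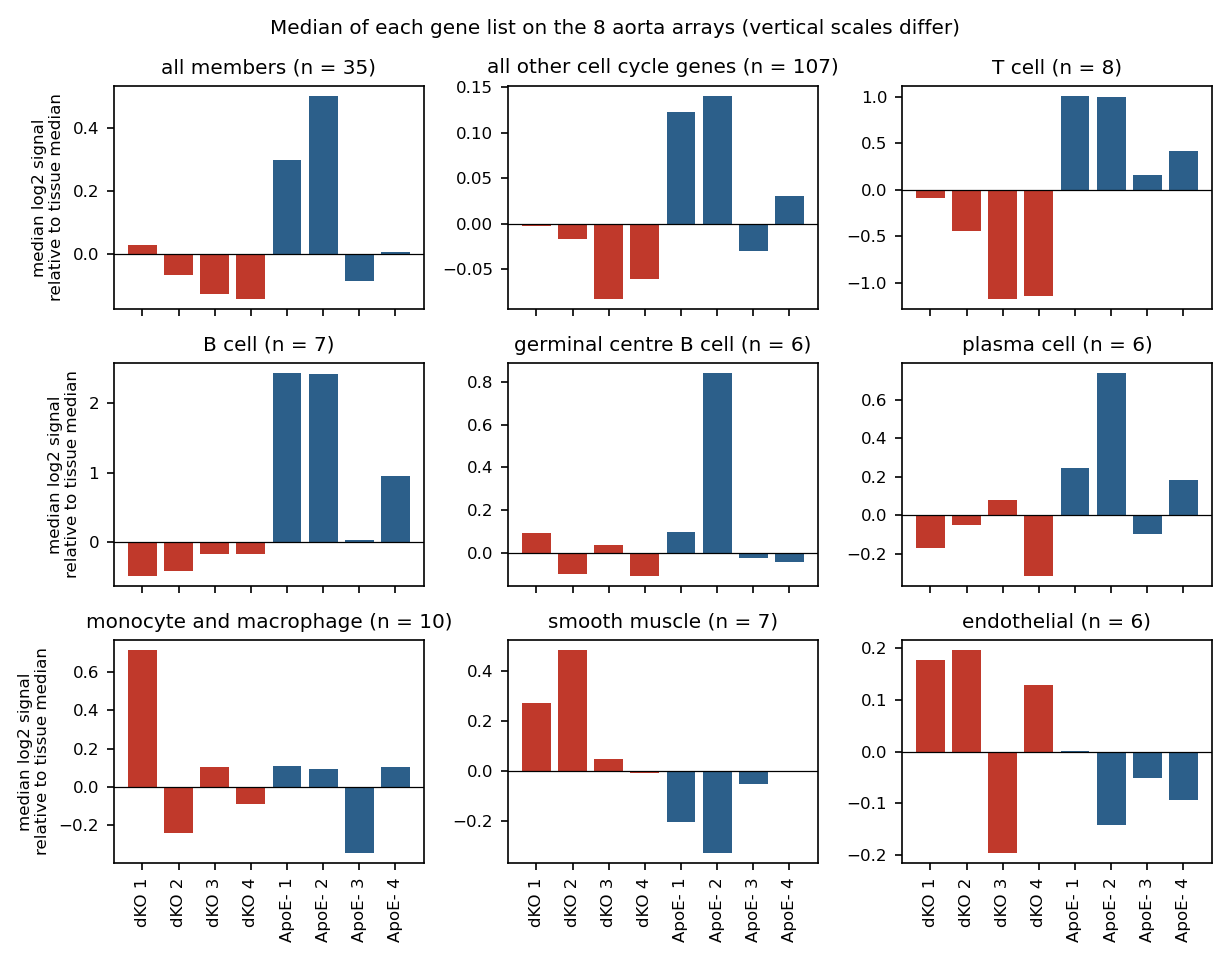
Median log2 signal of a gene list on each of the 8 aorta arrays, relative to each gene's tissue median, for the cell cycle members, the other cell cycle genes and 7 marker lists. Bars start at 0, red marks double-deficient (dKO) and blue ApoE-deficient (ApoE-) arrays, and the vertical scale differs between panels. Members, T cell and B cell genes all have their highest bars on ApoE-deficient arrays 1 and 2, with B cell medians of 2.44 and 2.42.

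A wider list of 112 further cell cycle genes, of which 107 were measured, was lower in double-deficient aorta too, but by less. The difference was below 0 for 76 of 107 (background 47.2%), with a median of -0.14. Here too ApoE-deficient arrays 1 and 2 were the highest. The median of the 107 genes was 0.12, 0.14, -0.03 and 0.03 on ApoE-deficient arrays 1 to 4. It ran from -0.08 to -0.0029 on double-deficient arrays, so ApoE-deficient array 3 lay inside their range. At an unadjusted limma p under 0.05, 14 were lower and 1 higher (background 3.81% and 3.91%), and the groups did not overlap for 6, all lower (background 2.11%). Other G2 and M phase genes were below 0 for 39 of 48 (median -0.18), the E2F, RB and DREAM regulators for 12 of 18 (median -0.14), and origin firing and DNA synthesis genes for 15 of 26 (median -0.08). G1 cyclins and their kinases were below 0 for 5 of 6 (median -0.14) and genes that halt the cycle for 5 of 9 (median -0.16).

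The gene of smallest p among them was Ccnd1, cyclin D1, which couples growth signals to G1. It stood at -0.15, -0.43, -0.22 and -0.19 in double-deficient mice and at 0.15, 0.23, 0.18 and 0.25 in ApoE-deficient ones, a difference of -0.45 (SE 0.08, limma adjusted p = 0.296). All 4 ApoE-deficient mice lay within 0.15 to 0.25, and arrays 1 and 2 did not stand apart from 3 and 4; with both omitted the difference was -0.46. Smc4, a condensin subunit that compacts chromosomes, stood at -0.08, -0.34, -0.24 and -0.12 against 1.25, 1.34, 0.08 and 0.67, a difference of -1.03 (SE 0.26, limma adjusted p = 0.461). The Smc4 groups did not overlap either, yet the high arrays were again ApoE-deficient 1 and 2. The kinetochore scaffold Knl1 (-0.43, SE 0.13), the mitotic phosphatase Cdc25c (-0.34, SE 0.11) and Depdc1a (-0.32, SE 0.10) also did not overlap, and the condensin subunit Ncaph (-0.56, SE 0.18) did.

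In CD115+ blood cells the proliferation genes showed no common direction, with differences from -0.28 (Ccnb2) to 0.62 (Tk1). The difference was below 0 for 15 of 35 members (14 after quantile normalization), where 55.3% of all genes were below and 44.7% above 0, and the median was 0.01. No member was called (background 0% lower and 0% higher, every limma adjusted p at 0.976 or above). At an unadjusted limma p under 0.05, 2 members were lower and 2 higher (background 2.33% and 2.06%), and the groups did not overlap for 2 lower and 3 higher members (background 5.23% and 3.93%). The median within-group SD of a member was 0.10, near the 0.11 of all genes, and the mean pairwise correlation of members was 0.012, where that of all genes was 0.0072.

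The licensing and S phase genes were the group with a single sign in CD115+ cells, with 8 of 8 above 0 and a median of 0.17. Leaving out 1 preparation turned the sign of Mcm5 (-0.01 to 0.09) and Mcm7 (-0.03 to 0.08). The median of these genes was -0.04, 0.10 and 0.07 in double-deficient replicates 1 to 3. It was -0.04, -0.14 and -0.03 in ApoE-deficient replicates 1, 3 and 4, so the genotypes overlapped. Mcm3 stood at -0.05, 0.35 and 0.09 in double-deficient replicates 1 to 3 and at -0.39, 0.05 and -0.33 in ApoE-deficient replicates 1, 3 and 4, a difference of 0.35 (SE 0.15, limma adjusted p = 0.976). Mcm4 stood at -0.04, 0.30 and 0.26 against -0.04, -0.18 and 0.04, a difference of 0.24 (SE 0.11, limma adjusted p = 0.976). For both genes double-deficient replicate 2 was the highest preparation and the groups overlapped. The other 6 of these genes ranged from 0.01 (Mcm7) to 0.22 (Mcm6).

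Tk1, the thymidine salvage kinase of S phase, differed in CD115+ cells by 0.62 (SE 0.19, limma adjusted p = 0.976), the largest value of a member with all arrays in the fit. It stood at 0.0016, 0.41 and 0.58 in double-deficient and at -0.0016, -0.39 and -0.48 in ApoE-deficient preparations. The groups did not overlap, but replicate 1 of each genotype lay next to the other near 0. Without the pooled ApoE-deficient preparations, which leaves replicate 1 alone in that group, the Tk1 difference was 0.33 and that of Mcm3 0.52. Rrm2 and Tyms differed by 0.01 and -0.05.

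Ndc80 had the smallest p of the members in CD115+ cells. It stood at 0.12, 0.13 and 0.17 in double-deficient and at -0.28, -0.12 and -0.14 in ApoE-deficient preparations, a difference of 0.32 (SE 0.06, limma adjusted p = 0.976). The 2 groups were well apart, with the double-deficient values close together. Kif20a stood at 0.02, 0.05 and 0.09 against -0.02, -0.04 and -0.06, apart too but by a difference of 0.09 (SE 0.04, limma adjusted p = 0.976).

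Among mitotic genes below 0, Bub1b stood at -0.04, -0.04 and -0.07 against 0.11, 0.04 and 0.08, a difference of -0.13 (SE 0.05, limma adjusted p = 0.976). Birc5 stood at -0.04, -0.03 and -0.05 against 0.25, 0.03 and 0.03, a difference of -0.14 (SE 0.07, limma adjusted p = 0.976). Neither gene's groups overlapped, and the size of the Birc5 difference rested on ApoE-deficient replicate 1, without which it was -0.07. Top2a stood at 0.01, -0.15 and -0.25 against 0.12, 0.16 and -0.01, overlapping, at -0.22 (SE 0.09, limma adjusted p = 0.976). Mki67 stood at 0.08, 0.47 and -0.29 against -0.15, -0.08 and 0.09, so double-deficient preparations held both extremes, at a difference of 0.13 (SE 0.20). Leaving out 1 preparation at a time turned the sign of 13 of 35 members in CD115+ cells, Mki67 among them (-0.06 to 0.32).

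**Figure D4:**
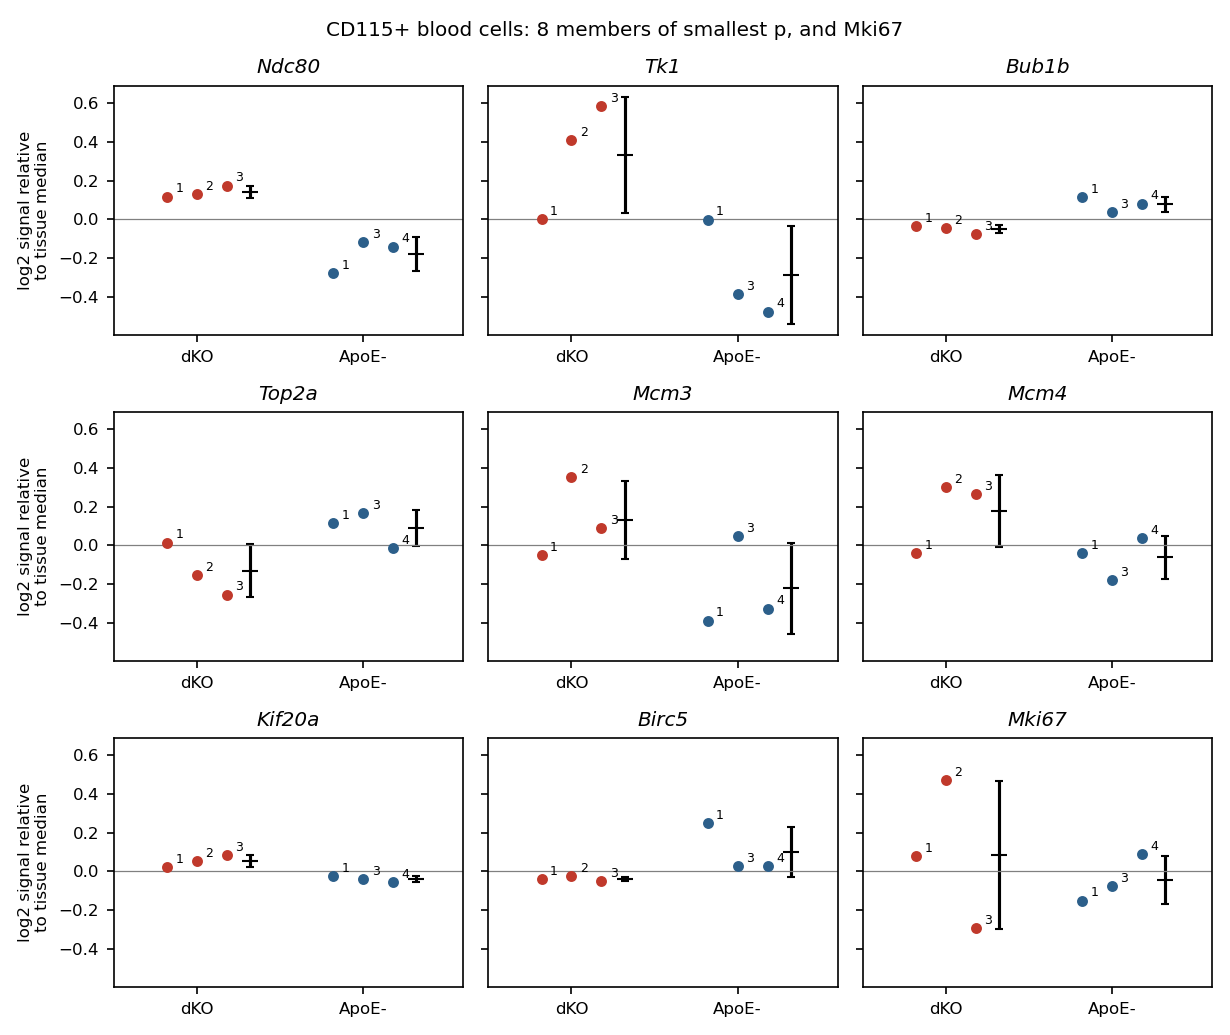
Log2 signal relative to the tissue median on each CD115+ array for the 8 members of smallest limma p and for Mki67. Points are preparations, numbered by replicate, with the mean and 1 SD (n = 3 each); ApoE-deficient replicates 3 and 4 are pools of 2 mice. Ndc80, Tk1 and Kif20a are the panels with all red points above all blue ones, by a narrow margin for Tk1 (0.0016 and -0.0016), and Bub1b and Birc5 those with all red points below.

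The remaining cell cycle genes were evenly split in CD115+ cells, with 52 of 107 below 0 (background 55.3%) and a median of 0.0042. At an unadjusted limma p under 0.05, 2 were lower and 3 higher (background 2.33% and 2.06%), counts close to the background. Those of smallest p were the spindle midzone protein Prc1 (0.17, SE 0.05), the G1 kinase Cdk4 (-0.16, SE 0.05), Ncaph (0.16, SE 0.06), the passenger complex subunit Cdca8 (-0.15, SE 0.06), the phosphatase Cdc25b (0.39, SE 0.15) and the helicase cofactor Gins4 (-0.25, SE 0.11).

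B cell markers differed between the CD115+ preparations. The median of 7 B cell markers was -0.38, 1.88 and 1.10 in double-deficient preparations against 0.38, -0.94 and -0.79 in ApoE-deficient ones, with 7 of 7 differences above 0 (median 1.44). Double-deficient replicate 2 was the highest preparation for 9 of the 35 members, and for 15.3% of all genes. It was also the highest for neutrophil markers (1.00) and platelet markers (1.65). Of the other lists, T cell genes were above 0 for 7 of 8 (median 0.31), and smooth muscle (6 after quantile normalization) and adipocyte genes were below 0 for 7 of 7 and 6 of 6 (medians -0.12 and -0.14). The part of these cells in the values of the members was not tested.

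The genotype difference itself was set against that of the other tissue in 1 fit of all 14 arrays. The aorta difference minus the CD115+ difference was below 0 for 34 of 35 members, where 45.3% of all genes were below and 54.7% above 0, with a median of -0.35. The aorta difference is part of this value and was itself below 0 for 33 members, so these counts are not independent. Its median moved from -0.37 to -0.11 with ApoE-deficient arrays 1 and 2 omitted. No member passed the adjusted test (background 0% lower and 0% higher, lowest limma adjusted p = 0.639). At an unadjusted limma p under 0.05, 6 members were lower and 0 higher (background 3.49% and 3.41%), namely Tk1, Kif20a, Mcm3, Rrm2, Mcm2 and Mcm6. Mcm3 (-0.79, SE 0.33), Mcm6 (-0.71, SE 0.32), Tk1 (-0.71, SE 0.25) and Mcm2 (-0.69, SE 0.30) had values below 0 in aorta and above 0 in CD115+ cells. Kif20a (-0.21, SE 0.09) had opposite signs too (-0.12 and 0.09), and Rrm2 (-0.66, SE 0.28) stood near 0 in CD115+ cells (0.01). Birc5 and Top2a were below 0 in both tissues, and their differences between tissues were -0.75 (SE 0.35) and -0.64 (SE 0.50). Kif23 was the 1 member with a value above 0 (0.09, SE 0.24).

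**Figure D5:**
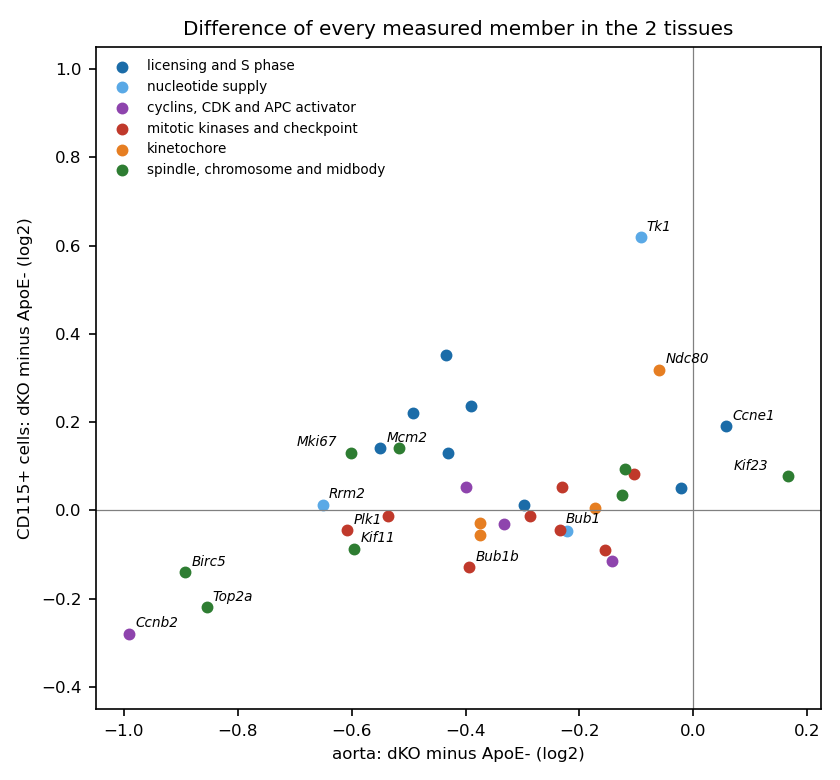
Difference between genotypes (double-deficient minus ApoE-deficient, log2) of the 35 members in aorta (horizontal axis) and in CD115+ cells (vertical axis), 1 point per gene, coloured by role. Points spread from -0.99 to 0.17 along the aorta axis and from -0.28 to 0.62 along the CD115+ axis, and 33 of 35 lie left of the vertical line.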

How the data were processed

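RNA (1 ng per sample, per the labels' protocols) was amplified, labelled with biotin and hybridised to 14 arrays. The authors deposited log values for 33793 probe sets, which were read here as log2. Their base, normalization and probe summarisation were not given in the sources used here. The deposited values had been centred: each probe set's median within a tissue was 0 within 5e-07. Of the probe sets, 23521 carried 1 gene symbol in the platform annotation, 1814 several and 8458 none, and only the first were used. Probe sets of 1 gene were averaged, which gave 22180 genes (22139 found in the GRCm38.p6 gene table). 34 members had 1 probe set and Rrm2 had 2.

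The genotypes were compared per tissue by limma 3.58.1 (lmFit and eBayes, R 4.3.3), and the tissues' differences in a single model of 4 group means. P-values were adjusted by Benjamini-Hochberg over all genes, at a threshold of 0.05, and the script was tested on simulated data. The p-values measure the spread between samples, which the labels name as separate preparations, and the number of arrays limits their precision. SE is limma's moderated standard error. The members and gene lists were chosen with earlier results of these data known, so no list was tested, only counted. Values on every array are given for the 8 members of smallest p in each tissue and Mki67, and the 6 other cell cycle genes of smallest p in each tissue are named. The bound on level rests on the step of stored 32-bit values (2 to the power -20 at a log2 level of 8 or more), read where at least 5 arrays could be used. Alternatives covered probe sets, scaling, level, the empirical Bayes step, array weights, a replicate block and arrays left out.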

Additional observations from a re-analysis of the deposited data

Results flagged for a closer look

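The highest and lowest of the 4 aorta arrays of a genotype were compared with the gap that Dixon's test allows at 95%, in 70 groups for the 35 members and 2 for the median over members. In 3 of the 72 groups an array was past it, where chance flags about 1 group in 20. Melk, a mitotic kinase, stood at 1.34 on ApoE-deficient array 2, apart from -0.17 to 0.03 on the other 3 ApoE-deficient arrays. Without that array the Melk difference in aorta was 0.07. The kinetochore gene Cenpf stood at 0.315 on ApoE-deficient array 3, apart from -0.01 to 0.03 on the others. The spindle gene Nusap1 stood at -0.309 on the same array, apart from 0.34 to 0.38.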

How the results depend on the processing

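No member passed an adjusted p of 0.05 in either tissue under any setting run; the lowest limma adjusted p was 0.192 in aorta (4-group fit) and 0.120 in CD115+ cells (without double-deficient replicate 1). The count of all genes called in aorta, 1, was 0 with the probe set of largest SD, with robust eBayes, with array weights and with both high ApoE-deficient aorta arrays omitted, and 19 in the 4-group fit. It was also 0 at a level of 8 or more, where Ly6d, the gene called in the main fit, was not among the genes kept. Leaving out 1 array gave 0 to 74, the 74 (69 lower) without ApoE-deficient replicate 3 and 3 without double-deficient replicate 4. The member median in aorta, -0.37, was -0.11 with both high arrays omitted. At a level of 8 or more a single member, Pcna, remained, which made the counts below 0 in aorta and CD115+ cells 1 and 0 and the CD115+ median 0.13. That median, 0.0135, was 0.0343 with the probe set of largest SD, 0.036 after quantile normalization and -0.0091 to 0.051 with 1 array left out. The difference between tissues, with 0 genes called and 1530 at an unadjusted limma p under 0.05, gave 0 to 58 without 1 array (58 without double-deficient CD115+ replicate 1, 30 without ApoE-deficient aorta replicate 3, 1 without double-deficient aorta replicate 2) and 1 with both high arrays omitted. The cause of these shifts was not tested. Same-numbered aortas correlated at 0.17, -0.15, -0.14 and 0.06 in their deviations from the group means, and same-numbered CD115+ preparations at -0.47 and -0.29. Differently numbered pairs of opposite genotype reached 0.25 in aorta and 0.35 in CD115+ cells. Such correlations cannot exclude that the numbers pair the samples, and the main fits took the samples as unpaired. With the replicate number as a block 1 gene was called in aorta and 0 in CD115+ cells. In that block fit 10 members were lower at an unadjusted limma p under 0.05 in aorta, in place of 6. The background shares given above are those of the main fit, so this count cannot be set against all genes. Signal over background is not part of the values, so weak expression cannot be told from none.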

Other observations

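Some regulators of the cycle, picked out after their values were seen, were highest in aorta on an array other than ApoE-deficient 1 or 2. The same held for some members, such as Bub1b and Nusap1, which were highest on ApoE-deficient array 4. Foxm1, which drives mitotic genes, stood at -0.18, -0.27, 0.11 and -0.33 in double-deficient mice and 0.20, 0.48, -0.11 and 0.69 in ApoE-deficient ones, with its highest value on ApoE-deficient array 4 and a difference of -0.48 (SE 0.18, limma adjusted p = 0.597). Myc, a growth factor-induced regulator of cell cycle entry, stood at -0.31, -0.88, 0.06 and -0.12 against 0.43, 0.43, 0.50 and -0.06, highest on ApoE-deficient array 3, at -0.64 (SE 0.22, limma adjusted p = 0.555). Mybl2, which encodes B-Myb, and E2f1 each differed by 0.04 (SE 0.12 and 0.15), and the brake Rb1 by 0.20 (SE 0.13).

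Btg2, an antiproliferative gene induced by p53, had a larger difference than most members, -0.94 (SE 0.32, limma adjusted p = 0.557). It stood at 0.23, -1.04, -0.87 and -1.19 in double-deficient mice and 0.16, 0.20, -0.16 and 0.70 in ApoE-deficient ones, so double-deficient aortas 2, 3 and 4 lay far below the rest and aorta 1 among the ApoE-deficient ones.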
